A study of Mus musculus with 6 samples.

Results

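The genes described here are 10 members of the major urinary protein family of the mouse: Mup1, Mup3, Mup7, Mup12, Mup13, Mup15, Mup16, Mup17, Mup18 and Mup20. They were taken by symbol from a table of 14492 genes measured by RNA sequencing of liver. They were selected on their levels in the same 6 libraries, the contrast between the study's groups included, so the difference of these 10 genes between the groups is given as a description, with no test. Livers came from male C57BL/6J mice, 8 weeks old, that received an injection into the tail vein and ate a high-fat diet (D12492) for the next 2 weeks. Per the labels, 3 libraries are from mice given vehicle and 3 from mice given an adenovirus made to overexpress Chrna4, a subunit of the nicotinic acetylcholine receptor. Another label speaks of adenovirus injection for the mice in general, and whether the vehicle itself contained a virus is not stated. Each library has a liver number of its own, and beyond that no label says how the replicates were kept apart, so p-values measure the spread between these libraries.

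Major urinary proteins are small lipocalins, barrel-shaped carriers of hydrophobic molecules, which hepatocytes secrete into blood and which pass into urine. There they bind and slowly release volatile pheromones. In mouse liver their genes are known to depend on the pulsed growth hormone of males, acting through the growth hormone receptor, Jak2 and Stat5b, and also on androgen, thyroid hormone and glucocorticoid. Most members are near-identical central copies. Mup20 encodes darcin, a pheromone protein of male urine, and Mup1 has been linked to glucose and lipid metabolism in mice.

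The central copies are so alike that many of their reads can fit several of them, and this bears on their single-gene values. Stretches of 90 bases of coding sequence, bases 101 to 190 of the Mup7 coding sequence and the bases aligned to them in 5 other members, show how the family divides (GENCODE M21). Capitals mark bases that differ from Mup7.
Mup7: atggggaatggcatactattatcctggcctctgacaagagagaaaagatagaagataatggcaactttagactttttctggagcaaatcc
Mup12: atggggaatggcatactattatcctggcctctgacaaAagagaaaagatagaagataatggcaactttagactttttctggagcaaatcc
Mup1: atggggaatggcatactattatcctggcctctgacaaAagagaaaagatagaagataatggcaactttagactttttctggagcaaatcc
Mup17: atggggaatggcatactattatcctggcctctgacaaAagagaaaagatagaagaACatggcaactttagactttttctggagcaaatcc
Mup20: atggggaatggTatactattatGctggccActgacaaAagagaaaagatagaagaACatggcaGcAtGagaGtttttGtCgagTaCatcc
Mup3: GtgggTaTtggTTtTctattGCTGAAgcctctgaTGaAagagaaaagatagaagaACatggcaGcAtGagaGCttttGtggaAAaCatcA
Within this window Mup12 and Mup1 each differ from Mup7 at 1 base, Mup17 at 3, Mup20 at 14 and Mup3 at 27.

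Over the whole coding sequence, the 28 pairs among the 8 members other than Mup3 and Mup20 were 98.33 to 99.63% identical, with a median of 98.89%. The closest pair, Mup1 and Mup12, differed at 2 bases. Mup20 was 90.06 to 91.34% identical to those 8 genes and Mup3 82.34 to 83.78%. All of the 150-base stretches of the Mup3 transcript (100%) occurred in no other annotated gene, against 68.9% for Mup20, 59.6% for Mup17 and 9.3 to 27.6% for the other 7 members. Mup20 shared its remaining stretches with 1 annotated gene, Mup-ps19, whereas each of the 8 central copies shared stretches with 12 to 15 Mup genes. The counting of reads that fit several genes (not given in the sources used here) can move them between copies, so the value of a single central copy is uncertain, whereas Mup3 and the sum over the family depend on it less.

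The 10 genes lie on the minus strand of chromosome 4 (GRCm38, GENCODE M21), all annotated as protein-coding, within a cluster that spans chr4:59956804-62150863 and holds 22 annotated Mup genes. From left to right they are Mup7 at chr4:60066469-60070475, Mup1 at chr4:60498012-60501960, Mup12 at chr4:60737383-60741326, Mup13 at chr4:61224307-61228286 and Mup15 at chr4:61435790-61439743. They continue with Mup16 at chr4:61515592-61519531, Mup17 at chr4:61591929-61595871, Mup18 at chr4:61670177-61674136, Mup20 at chr4:62050234-62054158 and Mup3 at chr4:62083476-62087342. The table holds 20 Mup genes of the cluster, the 10 described here among them.

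Promoter sequences (RefSeq, GRCm38.p6, 250 bases before to 50 after the annotated start) were at hand for 5 of the 10 members: Mup3, Mup7, Mup15, Mup17 and Mup18. Those of Mup17, a central copy, and of Mup3, the most divergent member, are shown as examples. Whether promoter sequence bears on the differences between the groups was not tested. Capitals mark ATCAAT, the core letters of an HNF6 (Onecut) site.
Mup17, chr4:61595783-61596082, minus strand: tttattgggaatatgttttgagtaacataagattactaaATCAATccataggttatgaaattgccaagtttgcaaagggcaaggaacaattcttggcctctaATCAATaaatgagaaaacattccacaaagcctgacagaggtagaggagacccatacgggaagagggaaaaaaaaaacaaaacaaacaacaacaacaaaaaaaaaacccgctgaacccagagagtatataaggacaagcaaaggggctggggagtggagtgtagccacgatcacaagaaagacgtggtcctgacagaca
Mup3, chr4:62087268-62087567, minus strand: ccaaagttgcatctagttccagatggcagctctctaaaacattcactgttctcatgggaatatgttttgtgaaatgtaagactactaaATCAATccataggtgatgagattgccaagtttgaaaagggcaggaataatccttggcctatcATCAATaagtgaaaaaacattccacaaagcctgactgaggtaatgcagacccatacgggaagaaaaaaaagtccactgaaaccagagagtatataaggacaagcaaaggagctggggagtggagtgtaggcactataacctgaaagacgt
These promoters were 87.6% identical over 251 aligned bases, and those of Mup15 and Mup17 were 100% identical over 297.

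Searched on both strands, ATCAAT occurred in each of the 5 member promoters, with 2 matches apiece, and in 13 of 13 Mup promoters of the reference, against 7.5% of 32851 mouse promoters of the same length. TTNNGNAA, the letters used for a C/EBP site, also occurred in 13 of 13, against 40.7% of all promoters. In the member promoters other than that of Mup3, 1 match to ATCAAT overlapped a match to TTNNGNAA. TTCNNNGAA, the letters used for a STAT5 site, occurred in 0 of 13, against 8.3% of all promoters. TGTTCT, letters used for the glucocorticoid receptor, occurred in 1 of the 5 member promoters, against 19.0%. TATAAA (13.6% of all promoters), TGTTTAC (FOXA, 3.6%) and GTTAAT (HNF1, 7.1%) occurred in none of the 5 members. The Mup promoters are copies of each other, so they are not independent, and a match or its absence is a description of these letters in this window.

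The libraries held 14959338 to 22440334 reads over the genes in the table. The deposited values are reads per 1000000 of a library total scaled by the authors, called the level here. The scaling factors were 0.853 to 0.922 for vehicle and 1.11 to 1.14 for the Chrna4-labelled libraries. Plain totals in place of this scaling moved the median log2 difference of all genes from -0.01 to 0.30. Chrna4 itself, which checks the labels, stood at 1.70, 4.99 and 3.38 in vehicle and at 3.70, 2.17 and 3.82 in the Chrna4-labelled libraries, a log2 difference of 0.01 with a 95% interval of -0.68 to 0.69 (limma adjusted p = 0.993). The groups overlapped for this gene, so "Chrna4-labelled" below is the label and not a measured property.

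Cell type markers moved between the groups as well; over all genes tested, limma called 14.2% higher and 10.3% lower. The summed level of 10 hepatocyte markers, none of them at 0, ranged from 84254 to 97826 in vehicle and from 72506 to 81022 in the Chrna4-labelled libraries, and 3 of the 10 fell (limma). The 14 Kupffer cell and macrophage markers summed to 415 to 1024 and 1543 to 1664, with 11 higher, and the 10 stellate cell markers to 186 to 206 and 579 to 634, with 7 higher. T and NK cell markers summed to 6.87 to 21.9 and 44.1 to 54.5, with 6 of 9 tested higher. Sums of B and plasma cell markers were 6.64 to 12.2 and 31.2 to 47.1, with 3 of 6 higher, and those of neutrophil and monocyte markers 10.03 to 14.8 and 50.4 to 56.2, with 6 of 6 higher. Endothelial (238 to 318 and 259 to 314) and cholangiocyte (41.4 to 72.5 and 52.6 to 82.0) sums overlapped between the groups. Of 8 endothelial markers 1 was higher and 2 were lower, and of 2 cholangiocyte markers tested 1 was higher (limma). The part of these shifts in the values of the Mup genes was not tested. Fewer hepatocytes and less RNA per hepatocyte cannot be told apart in bulk liver.

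Together the 10 Mup genes were far lower in the Chrna4-labelled livers. Their summed level was 49406, 30813 and 49812 in vehicle libraries 1, 2 and 3, and 8695, 7858 and 6137 in Chrna4-labelled libraries 1, 2 and 3. The lowest vehicle library lay above the highest Chrna4-labelled one. The mean was 43344 ± 10854 (SD, n = 3) in vehicle and 7563 ± 1304 (SD, n = 3) in the Chrna4-labelled group, a ratio of 5.73, so 17.4% of the vehicle level was left. The share of the reads over the genes in the table does not use the authors' scaling and is the scale of plain totals. By this measure the 10 genes took 4.22, 2.84 and 4.47% in vehicle and 0.990, 0.881 and 0.680% in the Chrna4-labelled libraries. The mean shares were 3.84 ± 0.877% and 0.851 ± 0.157% (SD, n = 3).

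**Figure D1:**
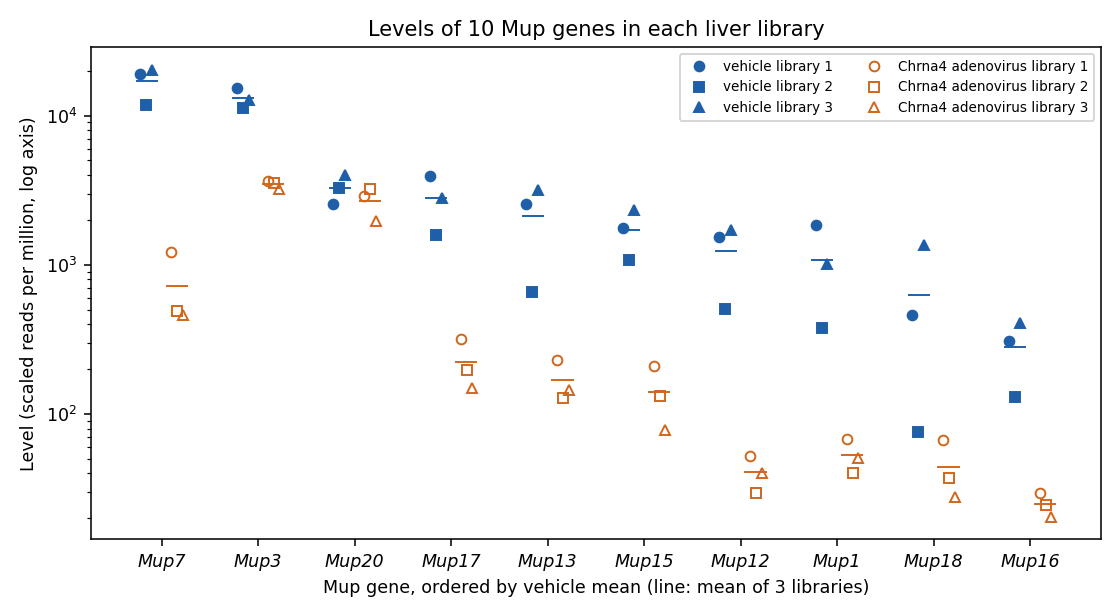
Level of each of the 10 Mup genes in each of 6 liver libraries (scaled reads per 1000000, log axis), with vehicle as filled and Chrna4-labelled as open symbols and a line at each group mean of 3 libraries. Groups lie apart for 9 genes, with Mup7 at 11832 or more in vehicle and at 1210 or less in the Chrna4-labelled libraries, and overlap for Mup20, which was 1.23-fold lower on this scaling and not lower with plain totals.

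Of the 10 genes, all of which passed the filter for low values (a mean level of at least 1), 9 had every Chrna4-labelled library below every vehicle library, a pattern seen in 21% of the 12099 genes tested. A log2 difference of -2 or below was found for 8 of the 10 and for 0.215% of all genes tested, and one of -1 or below for 9 and for 1.23%. The median log2 difference of the members was -3.52, with a range of -4.75 to -0.30, and that of all genes tested was -0.01. These counts use the contrast by which the genes were chosen. Log2 differences are of log2(level + 1), Chrna4-labelled minus vehicle.

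Mup7, the member with the highest level per kilobase in vehicle, stood at 19073, 11832 and 20283 in vehicle and at 1210, 492 and 461 in the Chrna4-labelled libraries. The groups were far apart, and Chrna4-labelled library 1 was more than double the other two of its group. The means were 17062 ± 4570 and 721 ± 424 (SD, n = 3), 23.7-fold lower, with a log2 difference of -4.67 that lay between -5.12 and -4.42 when any 1 library was left out.

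Mup12 and Mup1, the pair nearest in coding sequence, showed low residual levels. Mup12 stood at 1526, 502 and 1705 in vehicle and at 52.4, 29.6 and 40.4 in the Chrna4-labelled libraries, with means of 1244 ± 649 and 40.8 ± 11.4 (SD, n = 3), 30.5-fold lower. Its log2 difference of -4.75 was near that of Mup7, and which of them was larger changed with the library left out: without vehicle library 1 they were -4.51 and -4.57, without vehicle library 3 -4.43 and -4.53, and without Chrna4-labelled library 1 -4.94 and -5.12. Mup1 stood at 1850, 380 and 1018 in vehicle and at 68.0, 40.4 and 50.9 in the Chrna4-labelled libraries. Both genes were lowest in vehicle library 2 and in Chrna4-labelled library 2 of their groups, and no library overlapped between groups. The means of Mup1 were 1082 ± 737 and 53.1 ± 13.9 (SD, n = 3), 20.4-fold lower, with a log2 difference of -4.08. Without vehicle library 2 it was -4.70, and -3.56 without vehicle library 1.

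Mup17, Mup13 and Mup15, central copies near each other in the right part of the cluster, had intermediate differences. Mup17 stood at 3960, 1596 and 2813 in vehicle and at 320, 197 and 149 in the Chrna4-labelled libraries, 12.6-fold lower on means of 2790 ± 1182 and 222 ± 88.3 (SD, n = 3). Mup13 stood at 2567, 654 and 3169 and at 232, 128 and 144, 12.7-fold lower on means of 2130 ± 1313 and 168 ± 56.0. Mup15 stood at 1777, 1071 and 2321 and at 209, 132 and 78.8, 12.3-fold lower on means of 1723 ± 627 and 140 ± 65.4. All 3 were lowest in vehicle library 2 and highest in Chrna4-labelled library 1 of their groups, without overlap. Their log2 differences were -3.62, -3.42 and -3.65. That of Mup13 was -4.13 without vehicle library 2, and between -3.67 and -2.99 without any other 1 library.

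Mup16 and Mup18 are further central copies. Mup16 stood at 311, 130 and 408 in vehicle and at 29.7, 24.6 and 20.5 in the Chrna4-labelled libraries, 11.4-fold lower on means of 283 ± 141 and 24.9 ± 4.63 (SD, n = 3), with a log2 difference of -3.32. Mup18 stood at 460, 76.1 and 1355 and at 66.8, 37.6 and 27.8. For Mup18 the groups barely stood apart: vehicle library 2 was 1.14-fold above Chrna4-labelled library 1, while vehicle library 3 was 17.8-fold above vehicle library 2. Its means were 630 ± 656 and 44.1 ± 20.3 (SD, n = 3), and its log2 difference of -3.11 was -4.23 without vehicle library 2 and -2.16 without vehicle library 3, the ends of its range with any 1 library left out.

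Mup3, at the right of the cluster and the member least like the others, was lower by less. It stood at 15319, 11289 and 12720 in vehicle and at 3638, 3559 and 3204 in the Chrna4-labelled libraries. The libraries of each group were close to each other and the groups did not overlap. The means were 13110 ± 2043 and 3467 ± 231 (SD, n = 3), 3.78-fold lower, with a log2 difference of -1.91.

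Mup20, the gene of darcin, was the exception. It stood at 2564, 3283 and 4021 in vehicle and at 2869, 3217 and 1962 in the Chrna4-labelled libraries, so the groups overlapped. The means were 3289 ± 728 and 2683 ± 648 (SD, n = 3), and the log2 difference was -0.30 on the deposited scaling and 0.03, the other sign, with plain library totals. When any 1 library was left out it lay between -0.47 and -0.09. For the other 9 members the log2 difference with plain totals stayed below 0, from -4.42 for Mup12 to -1.57 for Mup3.

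The difference thus ran from 1.23-fold for Mup20 and 3.78-fold for Mup3 to between 11.4-fold and 30.5-fold for the 8 central copies described here. Summed, those 8 stood at 26945 ± 9302 in vehicle and at 1414 ± 673 in the Chrna4-labelled libraries (SD, n = 3), 19.1-fold lower. Mup3 and Mup20 together stood at 16399 ± 1682 and 6150 ± 863, 2.67-fold lower. Central copies that were not selected (98.34 to 99.07% identical to Mup7 in coding sequence) mostly differed by less. Their ratios of means, vehicle over Chrna4-labelled, ran from 2.14 for Mup10 to 5.26 for Mup11, with Mup9 at 11.4. The 8 were chosen with this contrast in view, and central copies share reads. Whether single copies differ in how far they were lower was therefore not tested.

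The make-up of the Mup sum was accordingly different. Mup7 made up 38.6, 38.4 and 40.7% of the summed level in vehicle and 13.9, 6.27 and 7.51% in the Chrna4-labelled libraries. Its share was almost constant in vehicle (39.2 ± 1.28%) although the sum itself was lower in library 2, and the groups did not overlap. Mup20 made up 5.19, 10.7 and 8.07% in vehicle and 33, 40.9 and 32.0% in the Chrna4-labelled libraries, and Mup3 went from 31.1 ± 5.55% to 46.4 ± 5.28% (SD, n = 3). These were the members with a higher share in every Chrna4-labelled library than in any vehicle library. The shares of Mup1, Mup12, Mup15, Mup16 and Mup17 were lower without overlap, and those of Mup13 and Mup18 were lower on average with overlap. A share within a sum rises when others are lower, so it is no measure of a higher level of Mup20.

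**Figure D2:**
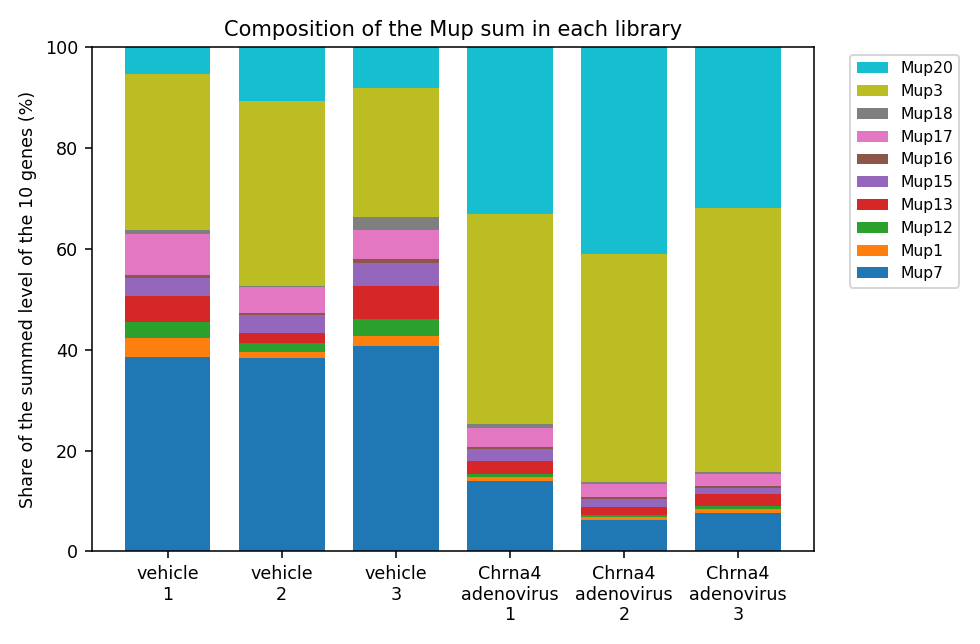
Share of the summed level of the 10 Mup genes (percent, axis from 0) taken by each gene, in 3 vehicle and 3 Chrna4-labelled liver libraries. Mup7 shrinks from 38.4% or more of the bar to 13.9% or less, while Mup20 and Mup3 fill most of the bars on the right.

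Levels per kilobase of exon allow for gene length but not for reads shared between central copies, so the order among those copies is uncertain. On this scale Mup7 (16517 ± 4424) and Mup3 (12275 ± 1913, SD, n = 3) headed the order in vehicle. Their ranges overlapped, although Mup7 was above Mup3 in 3 of 3 libraries. Mup3 stood clear of Mup20 (3545 ± 785). From Mup20 downward, each gene overlapped the next in vehicle: Mup17 (3009 ± 1275), Mup13 (2164 ± 1335), Mup15 (1863 ± 677), Mup12 (1344 ± 701), Mup1 (683 ± 465), Mup18 (678 ± 706) and Mup16 (273 ± 136). In the Chrna4-labelled libraries Mup3 (3246 ± 217) and Mup20 (2891 ± 698) led per kilobase, and their ranges overlapped. Mup7 followed at 698 ± 410, clear of both Mup20 above it and Mup17 (239 ± 95.2) below it. Mup13 (171 ± 56.9) and Mup15 (151 ± 70.7) overlapped each other, and all 3 Chrna4-labelled libraries of Mup15 lay above those of Mup18 (47.4 ± 21.9). Mup12 (44.1 ± 12.3), Mup1 (33.5 ± 8.79) and Mup16 (24.0 ± 4.46) closed the order with overlapping neighbours. The place of Mup1 among these changed with the length used, as given at the end.

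The Mup genes also varied widely within the vehicle group. The median SD of log2(level + 1) over the 3 vehicle libraries was 0.76 for the 10 members and 0.18 for all genes tested. Among the 1210 genes with the highest mean levels, all 10 members included, it was 0.16. The ratio of the highest to the lowest vehicle library ran from 1.36 for Mup3 to 17.8 for Mup18. Of the 10 genes, 9 were lowest in vehicle library 2, the exception being Mup20, and 7 were highest in vehicle library 3. In the Chrna4-labelled group the median SD was 0.43, against 0.12 for all genes tested, and 9 of the 10 were highest in library 1, again other than Mup20. The members share reads and a locus, so these counts are not over independent genes.

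**Figure D3:**
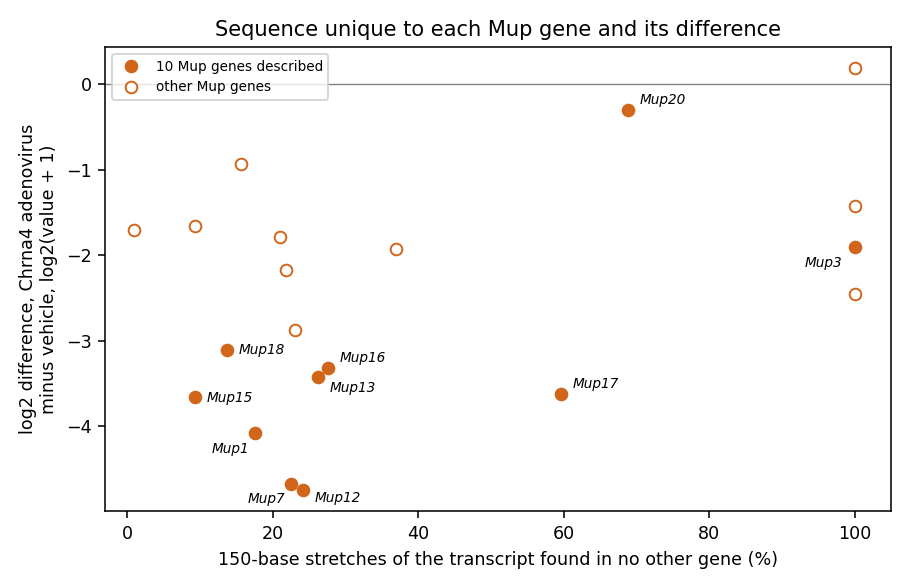
Log2 difference (Chrna4-labelled minus vehicle, log2(level + 1)) of each of 20 Mup genes against the percent of 150-base stretches of its transcript that occur in no other gene. Filled points are the 10 genes described: Mup17, at 59.6% unique, stood at -3.62 beside copies with 9.3 to 27.6%, whereas Mup20 (68.9%, -0.30 on the deposited scaling and 0.03 with plain totals) and Mup3 (100%, -1.91) differed by less.

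Among the 10 members, those with the most unique sequence differed least, Mup3 (100%, -1.91) and Mup20 (68.9%, -0.30, and 0.03 with plain totals). For the other members the differences did not follow the share of unique sequence in order, as the plot of one against the other shows. The part of shared reads in the differences was not tested. Mup17, with 59.6% of its stretches unique, had a log2 difference of -3.62, within the range of copies with far less unique sequence such as Mup15 (9.3%, -3.65) and Mup18 (13.7%, -3.11). Of the 10 other Mup genes in the table, 7 had every Chrna4-labelled library below every vehicle library. This pattern was seen in 21% of the 12099 genes tested. Mup2, Mup8, Mup9, Mup11 and Mup14, all among the 7, share stretches with central copies described here, so the count is not over independent genes. Mup11 stood at 4147, 1098 and 5120 in vehicle and at 886, 642 and 442 in the Chrna4-labelled libraries (log2 difference -2.18), and Mup14 at 2722, 1251 and 3531 and at 879, 657 and 498 (-1.79). The groups were apart for both, and without vehicle library 2 the log2 difference of Mup11 was -2.87. Mup21, whose transcript is 100% unique by this measure, stood at 460, 343 and 541 and at 181, 171 and 139 (-1.43).

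Mup9 (-2.87), Mup8 (-1.92) and Mup2 (-1.66) were also lower without overlap, as was Mup5 (-2.45), whose level was low: 3.47, 0.644 and 42.2 in vehicle and 0.293, 0.423 and 0.0530 in the Chrna4-labelled libraries. Without vehicle library 2 the log2 difference was -3.89 for Mup9 and -3.48 for Mup5; it was -2.14 for Mup9 without vehicle library 1, and Mup5 did not pass the filter on low values without vehicle library 3. Mup19 stood at 4703, 1908 and 331 in vehicle and at 668, 472 and 268 in the Chrna4-labelled libraries (-1.71), with overlap, and 0.9% of its stretches were unique. Its log2 difference was -0.86 without vehicle library 1 and -2.77 without vehicle library 3. Mup10 (-0.93) and Mup6 (0.18, at a level near 1, and -0.0012 without vehicle library 3) overlapped too. With all 20 Mup genes summed, the level was 5.46-fold lower, and over the 10 other genes alone it was 4.45-fold lower, at 9048 ± 3919 and 2031 ± 651 (SD, n = 3). Of the 26 genes in the table with a log2 difference of -2 or below, 11 were Mup genes.

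Protein-coding genes around the cluster had log2 differences of -0.53 to 0.89. Of 20 genes tested within 1 Mb of its ends, 2 were higher and 2 lower (limma), where 14.2% and 10.3% of all genes tested were called, and their median log2 difference was 0.06. Ptgr1, a prostaglandin and leukotriene reductase, rose from 2.71 ± 0.382 to 5.92 ± 1.25 (SD, n = 3; log2 difference 0.89, limma adjusted p = 0.00915). Hdhd3 fell from 20.4 ± 1.72 to 14.4 ± 1.73 (-0.48, limma adjusted p = 0.0289), and Slc31a1, a copper importer, from 235 ± 6.77 to 182 ± 4.44 (-0.37, limma adjusted p = 0.0138). With plain totals both falls were lost (limma adjusted p = 0.365 and 0.757), and the call of Ptbp3 (0.41, limma adjusted p = 0.0484) was lost on leaving out any library but vehicle 3 (0.0664 to 0.159). The nearest tested gene on the left, Snx30, had a log2 difference of 0.26 (limma adjusted p = 0.185), and Zfp37, nearest on the right, was too low to be tested.

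**Figure D4:**
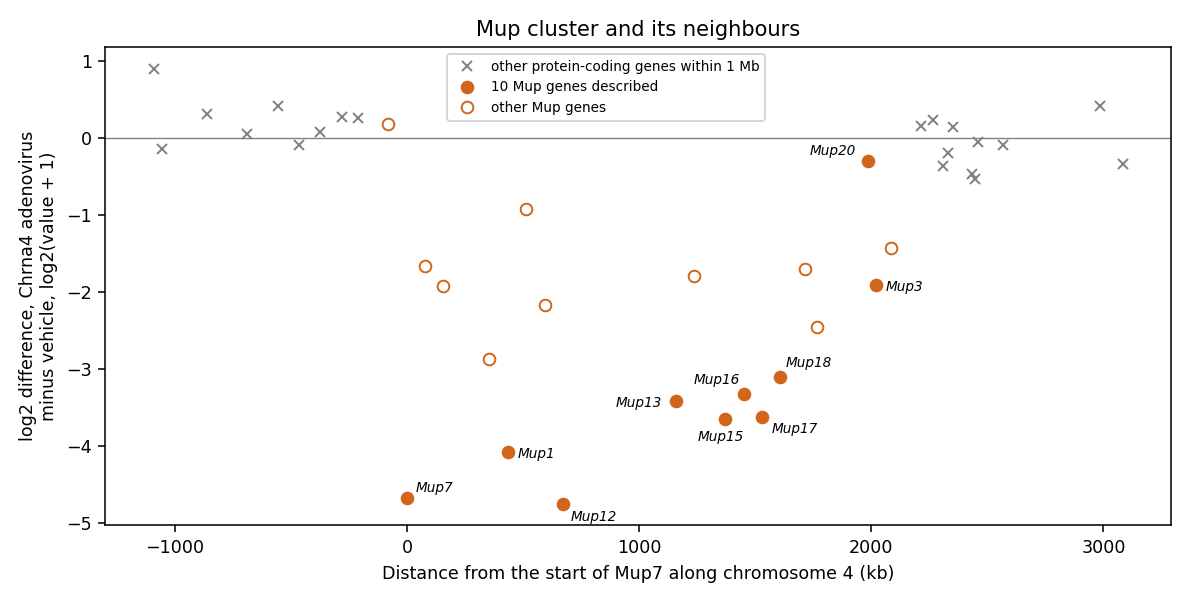
Log2 difference (Chrna4-labelled minus vehicle, log2(level + 1)) of the Mup genes and of 20 tested protein-coding neighbours, by distance in kb from the start of Mup7 along chromosome 4. Mup genes reach down to -4.75 (Mup12), while the neighbours on both sides lie between -0.53 and 0.89, and Mup20 (-0.30, 0.03 with plain totals) and Mup6 (0.18) lie within that range.

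The pathway by which growth hormone is known to drive Mup genes was examined in 27 listed genes, of which 26 were tested. There, 6 were higher and 4 lower (limma), against 14.2% and 10.3% of all genes tested, and the median log2 difference was 0.09 (0.42 with plain totals, where that of all genes was 0.30). Ghr, the growth hormone receptor, stood at 685, 769 and 726 in vehicle and at 413, 355 and 357 in the Chrna4-labelled libraries. It fell by 0.96 on the log2 scale (limma adjusted p = 0.000945). All 3 libraries of one group lay below all of the other, a pattern seen in 21% of all genes tested. Jak2, the kinase bound to the receptor, had a log2 difference of 0.25 (limma adjusted p = 0.133). Stat5a stood at 0.26 (0.294) and Stat5b, the transducer of the pulsed signal, at -0.07 (0.673), so neither passed the test. With plain totals Jak2 (0.57, limma adjusted p = 0.00686) and Stat5a (0.58, 0.0181) were called higher, and Stat5b stood at 0.26 (0.0674).

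Targets and inhibitors of the pathway were mixed. Igf1, the circulating growth factor, fell from 685 ± 109 to 479 ± 33.9 (SD, n = 3; log2 difference -0.50, limma adjusted p = 0.0266), and Igfals, which stabilises it in blood, from 138 ± 60.4 to 63.5 ± 14.2 (-1.03, 0.0372). Both calls were lost with plain totals (limma adjusted p = 0.334 and 0.0773), and without vehicle library 2 or any of the Chrna4-labelled libraries (0.0589 to 0.116 for Igf1 and 0.0556 to 0.134 for Igfals). Igfbp3, a carrier of Igf1, rose (0.91, limma adjusted p = 0.00271), as did Ptpn6, a phosphatase that dampens cytokine receptors (0.68, 0.0031), and Lepr, the leptin receptor (1.47, 0.00736).

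Feedback inhibitors and rapid targets of STAT5 varied within groups. Cish stood at 31.2, 26.7 and 4.17 in vehicle and at 7.22, 6.83 and 11.9 in the Chrna4-labelled libraries (log2 difference -0.83, limma adjusted p = 0.373). Bcl6, a repressor that opposes STAT5 in male liver, stood at 17.1, 12.0 and 130 in vehicle and at 68.8, 90.2 and 38.5 (1.01, limma adjusted p = 0.381). Vehicle library 3 was the one out of step for both. Without it the log2 differences were -1.67 for Cish (limma adjusted p = 0.00369) and 2.04 for Bcl6 (0.00577). Vehicle library 3 was singled out after its values were seen, and no other setting called either gene. Elsewhere adjusted p ran from 0.177 (edgeR) to 0.684 (limma) for Cish. For Bcl6 it ran from 0.178 (limma) to 0.874 (DESeq2), with a log2 difference of 0.32 in edgeR and DESeq2. Socs2 had a log2 difference of 0.36 (limma adjusted p = 0.509), which became 0.0422 without vehicle library 1, and Cux2 was too low to be tested. The summed Mup level of vehicle library 3 was close to that of vehicle library 1.

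Other genes known as higher in male than female mouse liver were mostly lower. Of 23 tested, 14 fell and 1 rose (limma), against 10.3% and 14.2% of all genes tested, with a median log2 difference of -0.50. With plain totals 10 were called lower and the median was -0.16. Hsd3b5, a steroid dehydrogenase, stood at 250, 253 and 271 in vehicle and at 55.7, 43.6 and 59.5 in the Chrna4-labelled libraries, a log2 difference of -2.28 (limma adjusted p = 0.000111). Susd4 fell from 34.8 ± 7.72 to 7.72 ± 1.17 (-2.02, limma adjusted p = 0.000432) and Sult2a8, a sulfotransferase, from 929 ± 47.3 to 341 ± 35.7 (-1.45, 0.000246; SD, n = 3). Gstp2, a glutathione transferase with a close copy, was called higher (0.75, limma adjusted p = 0.0412), and lost the call on leaving out any library but vehicle 1 (0.0594 to 0.149). Without Chrna4-labelled library 2, 9 of these genes were called lower.

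Genes known as higher in female liver numbered 18 tested, of which 3 rose and 0 fell (limma), with a median log2 difference of 0.46. The share that rose was near the 14.2% of all genes tested. With plain totals 10 were called higher and the median was 0.77. Cyp2a4, a steroid hydroxylase with close copies, stood at 0.617, 0.375 and 0.596 in vehicle and at 27, 43.0 and 22.5 in the Chrna4-labelled libraries (log2 difference 4.33, limma adjusted p = 0.000111). Cyp3a16 (1.502, limma adjusted p = 0.0195) and Abcd2, a peroxisomal fatty acid transporter (1.42, 0.0426), were the others. The level of Cyp3a16 was low, at 0, 0.965 and 0.546 in vehicle and at 4.28, 1.38 and 4.50 in the Chrna4-labelled libraries. The call of Cyp3a16 was lost without Chrna4-labelled library 1 or 3 (limma adjusted p = 0.0804 and 0.0788). That of Abcd2 was lost with edgeR (adjusted p = 0.0946) and DESeq2 (0.181), and on leaving out any library but vehicle 2 (limma, 0.0639 to 0.128). Without Chrna4-labelled library 1 or 3 only 1 gene was called higher, without vehicle library 2 there were 7, and without vehicle library 3 there were 3 called lower.

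**Figure D5:**
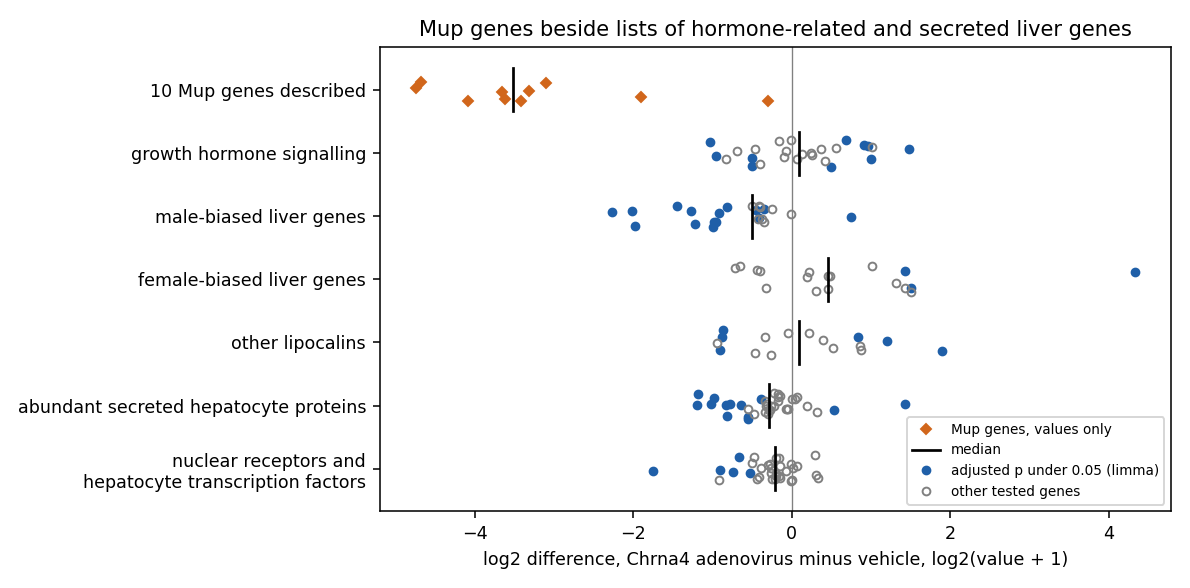
Log2 difference (Chrna4-labelled minus vehicle, log2(level + 1)) of each tested gene in 7 groups, with the median as a black bar and filled circles for genes past the limma threshold of 0.05; the Mup genes (diamonds) are shown as values only. The Mup median lies at -3.52, that of the male-biased genes at -0.50 and that of the female-biased genes at 0.46.

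Relatives of the Mup proteins were mixed. Of 16 other lipocalins and related lipid binding proteins tested, 3 rose and 3 fell (limma), against 14.2% and 10.3% of all genes tested, with a median log2 difference of 0.09 (0.38 with plain totals). Lcn2, an iron-siderophore binding lipocalin of the acute phase, rose from 31.1 ± 3.49 to 120 ± 22.4 (SD, n = 3; 1.90, limma adjusted p = 0.000255). Fabp4, a fatty acid binding protein, also rose (0.84, limma adjusted p = 0.00137). Rbp4, the retinol carrier of plasma, fell from 4439 ± 367 to 2372 ± 156 (-0.90, limma adjusted p = 0.00297), with C8g (-0.87, 0.0025) and Fabp1 (-0.88, 0.00968, and 0.0511 without Chrna4-labelled library 2).

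Abundant plasma proteins made by hepatocytes, as the Mup proteins are, were lower in part. Of 37 tested, 11 fell and 2 rose (limma), against 10.3% and 14.2% of all genes tested. The median log2 difference was -0.29 on the deposited scaling and 0.05, the other sign, with plain totals, where 7 fell and 6 rose. Serpina1d fell by 1.02 (limma adjusted p = 0.00133), Apoc4 by 0.99 (0.000888) and Serpina1b by 0.78 (0.00504) on the log2 scale; the Serpina1 genes are close copies of each other. Apoa4 rose (1.42, limma adjusted p = 0.00663), as did Hpx, the haem carrier (0.54, 0.0251), whose call was lost on leaving out vehicle library 2 or any Chrna4-labelled library (0.0711 to 0.0921). Without any 1 of the Chrna4-labelled libraries, 7 genes of this list were called lower.

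Among 33 nuclear receptors and hepatocyte transcription factors, 5 fell and 0 rose (limma), against 10.3% and 14.2% of all genes tested. The median log2 difference was -0.21 on the deposited scaling and 0.11, the other sign, with plain totals, where 2 fell and 2 rose. Nr1i3, the constitutive androstane receptor, fell from 62.5 ± 28.1 to 17.1 ± 3.44 (SD, n = 3; -1.75, limma adjusted p = 0.00363). Onecut1, the gene of HNF6, was tested and was not called in either direction. Onecut2, its relative, fell from 115 ± 40.8 to 59.3 ± 9.42 (-0.90, limma adjusted p = 0.0194). That call was lost without Chrna4-labelled library 1 or 2 (0.0747 and 0.0821). Tef, a circadian factor, fell by 0.52 on the log2 scale (limma adjusted p = 0.0221) and was not called with plain totals (0.216) or without the same libraries (0.0868 and 0.0862). Without vehicle library 1, 9 factors were called lower, and without Chrna4-labelled library 1, 2 or 3 there were 1, 1 and 3.

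The genes whose profile over the 6 libraries lay nearest to that of the summed Mup level were sought among genes that are not Mup genes, with a mean level of at least 20. Nearness was the root mean square difference of log2(level + 1) after centring each profile. They were Serpina12 (0.276), a visceral fat-derived serine protease inhibitor also known as vaspin, Slc22a7 (0.317), an organic anion transporter, Cyp2c50 (0.334), a fatty acid epoxygenase, Hsd3b5 (0.343) and Susd4 (0.353). Serpina12 stood at 188, 146 and 131 in vehicle and at 34.7, 23.8 and 19.1 in the Chrna4-labelled libraries. Like 7 of the 10 Mup genes, it was lowest in Chrna4-labelled library 3 of its group, but its lowest vehicle value was in library 3, where 7 of the 10 Mup genes were highest. Cyp2c50, which has close copies, stood at 574, 626 and 615 and at 113, 111 and 127, and did not share the low value of the Mup genes in vehicle library 2. The likeness rests mainly on the difference between the groups and was not tested.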

How the data were processed

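Poly(A)+ RNA of liver was sequenced in 3 vehicle and 3 Chrna4-labelled libraries with paired reads of 150 bases, per the labels. The submitters' processing notes list TopHat2, HTSeq, mm10 and GRCm38. Not given in the sources used here are their roles, their versions and the counting of shared reads. The deposited signal per library is reads per 1000000 of a scaled library total: divided by the value of 1 read, 100% of values were whole to within 0.01, and the factors equal those of TMM in edgeR. The authors' deposited log2 fold changes and p-values were not used. The 10 Mup genes and all gene lists were chosen with earlier results of these data known.

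From the deposited signal, log2(value + 1) was fitted for 12099 genes (mean level at least 1) with limma 3.58.1 (R 4.3.3, eBayes with trend) over all 6 libraries, two-sided, with Benjamini-Hochberg adjustment over these genes and a threshold of 0.05; 2393 genes were not tested. This scale understates the change of low genes. The step was tested on simulated data. Alternatives were plain library totals, pseudocounts of 0.5 and 0.1, no filter, edgeR 4.0.16 (quasi-likelihood) and DESeq2 1.42.0 on the recovered reads, and each library left out. Named genes were every Mup gene, Chrna4, 9 growth hormone genes, up to 3 genes per list and direction by lowest p, the nearest neighbours and the 5 nearest profiles. A gene that this rule names is not reported here. Of the 14492 gene numbers, 14480 matched GENCODE M21, from which the coordinates come; the authors' own release is unknown. The depth of 14959338 to 22440334 reads per library limits mainly the low genes. Genes with near-identical copies (Mup, Cyp2a, Cyp2c, Cyp3a, Gstp and Serpina1) have uncertain single values.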

Additional observations from a re-analysis of the deposited data

How the results depend on the processing

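No paired analysis was possible because every library carries a separate liver number in its title and the groups share none. For 9 of the 10 Mup genes, all but Mup20, the log2 difference was below -1 under every setting tried. The log2 ratio of the summed level, -2.52, was -2.18 with plain library totals, -1.94 without Mup7 and -2.71 to -2.39 with 1 library left out. With the longest transcript as length, the level per kilobase of Mup1 was 1168 in vehicle and 57.3 in the Chrna4-labelled group and that of Mup3 3523 in the latter. In that group Mup1 then stood above Mup18 (47.4) and Mup12 (44.1), whose lengths were the same by both measures. With levels per kilobase of exon, Mup1 took 0.449% of the Mup sum in the Chrna4-labelled group, against 0.709% by level. Over all genes, 1721 were higher and 1241 lower (58.1% of calls higher), 4542 and 340 with plain totals (93.0% higher), and 910 to 1938 and 487 to 1421 with 1 library left out, fewest without Chrna4-labelled library 2. With plain totals, growth hormone genes numbered 11 higher and 1 lower, male-biased genes 10 lower, female-biased genes 10 higher, other lipocalins 6 higher, secreted proteins 6 higher and 7 lower, transcription factors 2 higher and 2 lower, and neighbours 8 higher and 0 lower. DESeq2 called 5 other lipocalins and 8 transcription factors lower. Without a filter 1 secreted protein was higher, and with a pseudocount of 0.1 there were 0 male-biased genes and 1 neighbour higher. With 1 library left out, growth hormone genes numbered 4 to 8 higher and 1 to 5 lower, male-biased genes 0 to 1 and 9 to 17, female-biased genes 1 to 7 and 0 to 3, secreted proteins 1 to 2 and 7 to 12, transcription factors 1 to 9 lower, and neighbours 1 to 3 and 0 to 3. Leaving out a library also removes a sample; the cause of the other shifts was not tested.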
